A study of Mus musculus with 5 samples.

Results

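The genes of the collagens, the laminins, the matrix metalloproteases (Mmps), their tissue inhibitors (Timps) and the nidogens, together with Sparc and Hspg2, were followed in mouse embryonic stem (ES) cells and in sphere cells made from them by Akt activation. Members were taken by their platform gene symbol, which gave 71 genes of the 16032 named genes on the array: 33 collagens, 9 laminin chains, 21 Mmps, 4 Timps, and Nid1, Nid2, Sparc and Hspg2. Col15a1 had 2 probes, of which the brighter was used.

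All cells came from male ES cells of strain 129 that carry Akt-Mer, a membrane-targeted Akt kinase joined to a ligand-binding domain from the estrogen receptor, so the ES cells without drug carry the transgene too. 4-hydroxytamoxifen (4OHT) switches the kinase on. The Akt-spheres, described by the labels as cells resembling primordial germ cells, were induced and expanded with 1 µM 4OHT on OP9 cells, a mouse stromal line, and gave 1 array from line 21 and 1 from line 42. OP9 cells were reduced before analysis by a short plating step. Of the other arrays, 1 held ES-like cells obtained out of line 21 spheres by transient 4OHT on mouse embryonic fibroblast feeders (reverted cells), 1 from line 21 ES cells with 1 µM 4OHT and 1 from line 21 ES cells without it. ES cells from line 42 are not analysed here, and sphere line and sphere replicate cannot be told apart.

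Basement membranes are thin sheets in which a laminin network, built of trimers of 1 alpha, 1 beta and 1 gamma chain, is tied to a type IV collagen network by nidogens and the heparan sulfate proteoglycan perlecan (Hspg2). In the early mouse embryo such a sheet lies between epiblast and primitive endoderm, and ES cells make several of its components. Fibrillar collagens of connective tissue are made mainly by stromal cells, and Mmps cleave matrix proteins while Timps hold Mmps in check.

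Each array listed 20787 to 21479 of 22871 probes, at a median intensity of 50.0. A value is the intensity that the authors deposited, in arbitrary units, and probes of different genes are not compared in level. An empty cell means that no value was listed. Of the 71 members, 59 had a value on all 5 arrays. Only 41 entered any comparison, since a gene had to be listed on all arrays compared and reach the 40th percentile (28.6 to 29.3) of at least 1 of them. The other 30 never reached that percentile, among them Mmp9, Mmp13, Timp2 and Timp4. For a member that entered through 1 bright array alone, such as Col6a1, the filter favoured a difference. Differences are on the log2(intensity + 1) scale after each array was centred on its median, which understates the change of dim probes.

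The upstream sequences of 4 members that carry the results below are shown: Nid1, which separated the spheres from every ES-type culture, Sparc, whose sphere values lay below all ES-type values, Timp1, which differed with 4OHT in ES cells, and Col5a1, which differed in reverted cells. Each is the 250 bases before the annotated start, 5′ to 3′ on the gene's own strand, from RefSeq (GRCm38.p6).
Nid1, chr13:13437352-13437601, plus strand: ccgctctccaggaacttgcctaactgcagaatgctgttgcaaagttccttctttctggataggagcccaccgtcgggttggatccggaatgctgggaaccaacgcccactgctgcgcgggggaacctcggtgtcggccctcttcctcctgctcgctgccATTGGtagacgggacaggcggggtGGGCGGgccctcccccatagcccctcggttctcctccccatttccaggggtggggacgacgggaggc
Sparc, chr11:55420081-55420330, minus strand: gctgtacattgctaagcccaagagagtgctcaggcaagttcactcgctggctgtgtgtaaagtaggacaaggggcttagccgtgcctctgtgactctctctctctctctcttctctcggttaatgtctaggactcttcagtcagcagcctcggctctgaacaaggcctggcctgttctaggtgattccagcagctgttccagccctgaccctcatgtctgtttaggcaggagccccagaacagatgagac
Timp1, chrX:20869916-20870165, plus strand: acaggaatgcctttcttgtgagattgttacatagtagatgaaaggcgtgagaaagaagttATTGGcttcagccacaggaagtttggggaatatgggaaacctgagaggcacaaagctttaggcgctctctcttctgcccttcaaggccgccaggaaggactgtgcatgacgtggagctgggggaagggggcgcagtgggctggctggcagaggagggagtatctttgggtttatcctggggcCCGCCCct
Col5a1, chr2:27886175-27886424, plus strand: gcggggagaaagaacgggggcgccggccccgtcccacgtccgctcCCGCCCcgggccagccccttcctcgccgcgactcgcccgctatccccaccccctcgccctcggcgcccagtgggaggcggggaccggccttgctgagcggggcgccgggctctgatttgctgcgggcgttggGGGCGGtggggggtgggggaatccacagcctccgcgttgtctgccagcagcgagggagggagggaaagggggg
Capitals mark matches, on either strand, to the GC box (GGGCGG) or the CCAAT box (CCAAT). The TATA box (TATAAA) and the AP-1 site (TGANTCA) were searched too and had 0 matches in these 4 windows. No marked match overlaps another. Nid1 and Timp1 each held 1 GC box and 1 CCAAT box, Col5a1 held 2 GC boxes, and Sparc held neither. Over 32851 windows of this length, 32.7% held a GC box, 33.8% a CCAAT box, 12.4% a TATA box and 6.75% an AP-1 site. GC content was 64.4% for Nid1, 54.0% for Sparc, 54.4% for Timp1 and 76.4% for Col5a1. These matches describe letters and not binding. Promoter windows were found for 53 of the 71 members.

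Spheres were set against the 3 ES-type arrays (reverted cells, ES cells with 4OHT and ES cells without it), which asks which matrix genes part both sphere lines from every ES-like culture. Nid1, the nidogen that links laminin to type IV collagen, fell in spheres, and it was the only member past the threshold. It read 82.0 and 76.8 in the spheres of lines 21 and 42, against 499.6 in reverted cells, 465 in ES cells with 4OHT and 845 in ES cells without it. Both sphere arrays lay far below all 3 ES-type arrays and close to each other. The fall was 7.23-fold (log2 -2.85, SE 0.35, limma adjusted p = 0.0257).

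Among 39 members tested, limma called 0 higher and 1 lower, against 0.963% higher and 1.47% lower (2.44% in all) of 10589 genes. At an unadjusted p under 0.05, limma had 9 members and 2002 genes. The call of Nid1 rests on all but 1 of the arrays, the reverted one. Without ES cells without 4OHT its limma adjusted p was 0.0791, and limma then called 0 of all genes tested, against 258 with all arrays. Without ES cells with 4OHT it was 0.0720, with 32 genes called. With a single sphere array the call was lost too, at a log2 difference of -2.93 without line 21 spheres and -2.78 without line 42 spheres. The sphere arrays came from different lines, 21 and 42. The spread behind each p here thus holds the difference between these lines and the differences among the ES-type conditions. No culture had a replicate array within its line, so technical spread cannot be separated from these differences.

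**Figure D1:**
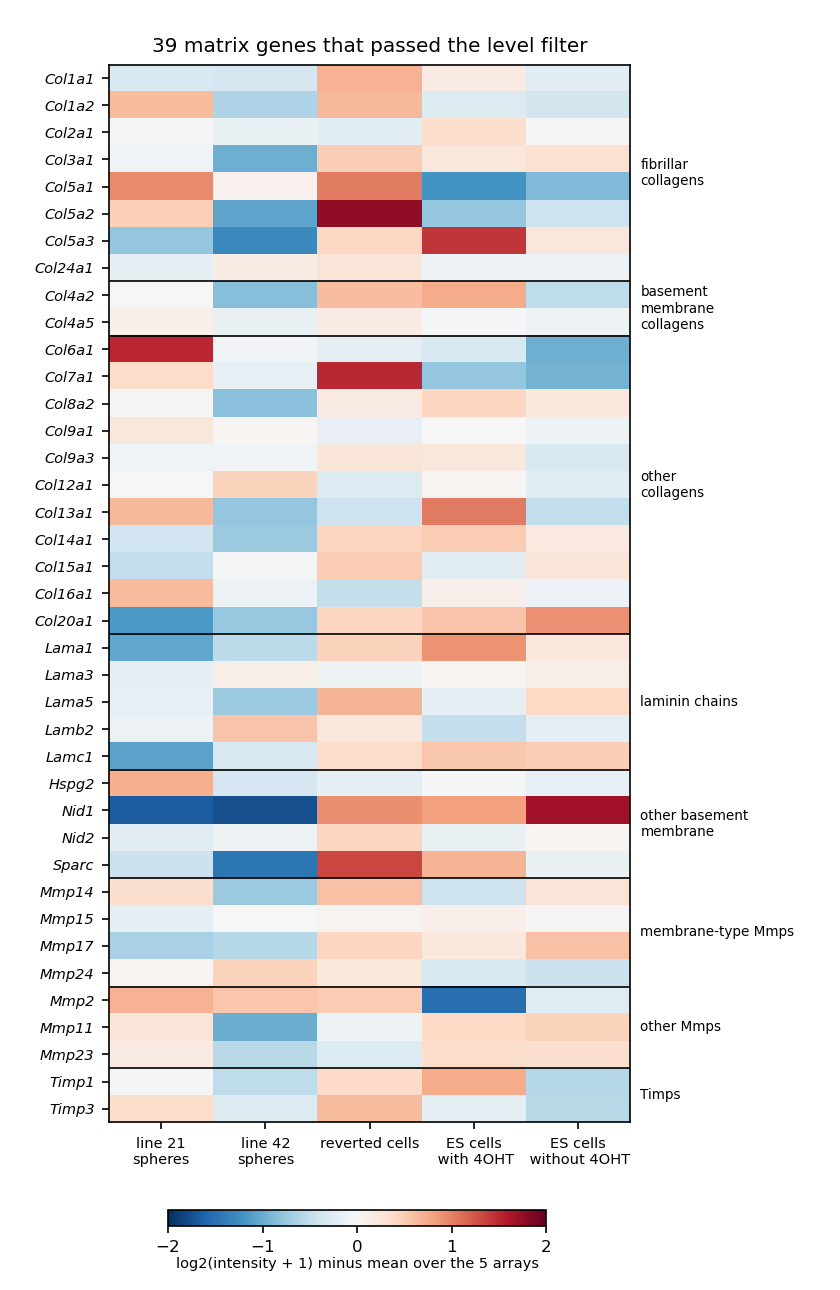
Heat map of the 39 members tested between spheres and ES-type arrays. Columns are the 5 arrays, rows are genes grouped by role, and colour is log2(intensity + 1) minus the gene's mean over the arrays. Nid1 is low in both sphere columns. The colours are not centred on the array medians. After that centring the reverted array held the highest value of 14 members.

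The related Nid2 did not follow Nid1. Its intensities were 854 and 915 in spheres of lines 21 and 42, against 1327 in reverted cells, 886 in ES cells with 4OHT and 1019.6 in ES cells without it. The sphere and ES-type values overlapped (log2 -0.26, SE 0.27, limma adjusted p = 0.663). Hspg2 read 59.9 and 28.5 in spheres and 31.8 to 35.2 on the ES-type arrays, so that only line 21 spheres stood above the rest. Leaving that array out turned its difference from 0.32 to -0.23.

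Laminin chains were led by the embryonic pair Lama1 and Lamc1. Lama1, the alpha chain of early embryonic basement membranes, read 37.3 and 54.2 in spheres of lines 21 and 42, against 108 in reverted cells, 146 in ES cells with 4OHT and 90.4 in ES cells without it. Lamc1, the gamma chain shared by most laminin trimers, read 149 and 253 in spheres, against 408, 457 and 443 on the same ES-type arrays. Neither gene's sphere values overlapped the ES-type values. The differences were 2.47-fold for Lama1 (log2 -1.30, SE 0.29, limma adjusted p = 0.0802) and 2.23-fold for Lamc1 (log2 -1.16, SE 0.28, limma adjusted p = 0.106), and neither passed the threshold.

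Other laminin chains differed less. Lama5, an alpha chain of many epithelial basement membranes, read 174 and 116 in spheres, against 314, 172 and 257 in reverted cells and in ES cells with and without 4OHT. Its groups overlapped through the array of ES cells with 4OHT. Lamb2, a beta chain, read 395 and 632 in spheres and 306 to 496 on the ES-type arrays. Lama3, an alpha chain of skin-type laminin, stayed within 130 to 160 on all 5 arrays (log2 -0.05, SE 0.23, limma adjusted p = 0.929). Lamb3, a beta chain that pairs with Lama3, was unlisted in both sphere lines and read 58.0 in reverted cells, 10.3 in ES cells with 4OHT and 9.24 in ES cells without it. Lama2, Lama4 and Lamc3 never passed the level filter.

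Sparc, a collagen-binding matrix glycoprotein, read 719 and 354 in spheres of lines 21 and 42, against 2431 in reverted cells, 1550.6 in ES cells with 4OHT and 879 in ES cells without it. Every sphere value lay below every ES-type value, yet the ES-type values themselves spread widely (log2 -1.56, SE 0.50, limma adjusted p = 0.176). Of the type IV collagens, Col4a2 read 41.5 and 22.6 in spheres, against 64.2 in reverted cells, 70.0 in ES cells with 4OHT and 29.0 in ES cells without it. Col4a5 lay between 36.9 and 46.0 on all arrays. Col4a1 (21.2 to 28.6) stayed just under the filter. In the annotation Col4a1 (minus strand) and Col4a2 (plus strand) start 21 bases apart on chromosome 8, so that their 5′ ends overlap.

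**Figure D2:**
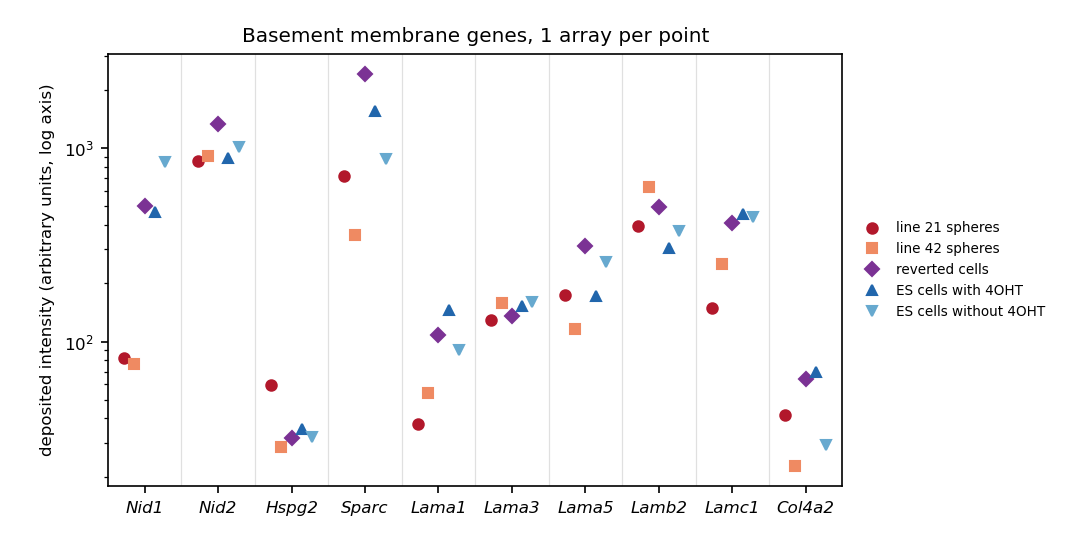
Deposited intensity on a log axis for 10 basement membrane genes, with 1 point per array. For Nid1, Sparc, Lama1 and Lamc1 both sphere points lie below the 3 ES-type points, while Nid2, Lama3 and Lamb2 overlap.

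Among fibrillar collagens, 8 of 11 members were tested and limma called 0. The largest differences were those of Col5a3 (log2 -1.72, SE 0.41, limma adjusted p = 0.0960) and of Col3a1, a chain of connective tissue fibrils, on the low side (log2 -0.86, SE 0.34, limma adjusted p = 0.250). Col5a3, a minor chain of type V collagen, read 19.7 and 13.5 in spheres of lines 21 and 42, against 46.0 in reverted cells, 94.8 in ES cells with 4OHT and 40.3 in ES cells without it. Both sphere arrays were at least 2-fold below all 3 ES-type arrays. Col5a1, the main chain of type V collagen, which starts fibril assembly, read 310 and 171 in spheres, against 329, 69.4 and 86.7 in the same order. Here the reverted cells sat with the line 21 spheres rather than with the other ES cells (log2 0.87, SE 0.71, limma adjusted p = 0.572). The type I chain Col1a1 was dim throughout, at 17.5 and 17.0 in spheres and 18.6 to 36.0 on the ES-type arrays.

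Among the other collagens, 11 of 18 members were tested and limma called 0. Col20a1, a fibril-associated collagen, read 16.1 and 21.4 in spheres, against 50.0 in reverted cells, 55.3 in ES cells with 4OHT and 70.6 in ES cells without it. It lay at least 2-fold below every ES-type array in both lines and just missed the threshold (log2 -1.59, SE 0.28, limma adjusted p = 0.0519). With quantile normalization or without centring it passed. Col14a1, also fibril-associated, read 42.8 and 33.3 in spheres and 64.1 to 79.9 on the ES-type arrays (log2 -0.93, SE 0.24, limma adjusted p = 0.119). Col6a1, of the beaded-filament type VI collagen, read 31.5 and 9.96 in spheres and 4.78 to 9.13 on the ES-type arrays. Col9a2, a chain of cartilage-type collagen, had no value in either sphere line and read 7.94 in reverted cells, 41.5 in ES cells with 4OHT and 35.4 in ES cells without it.

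**Figure D3:**
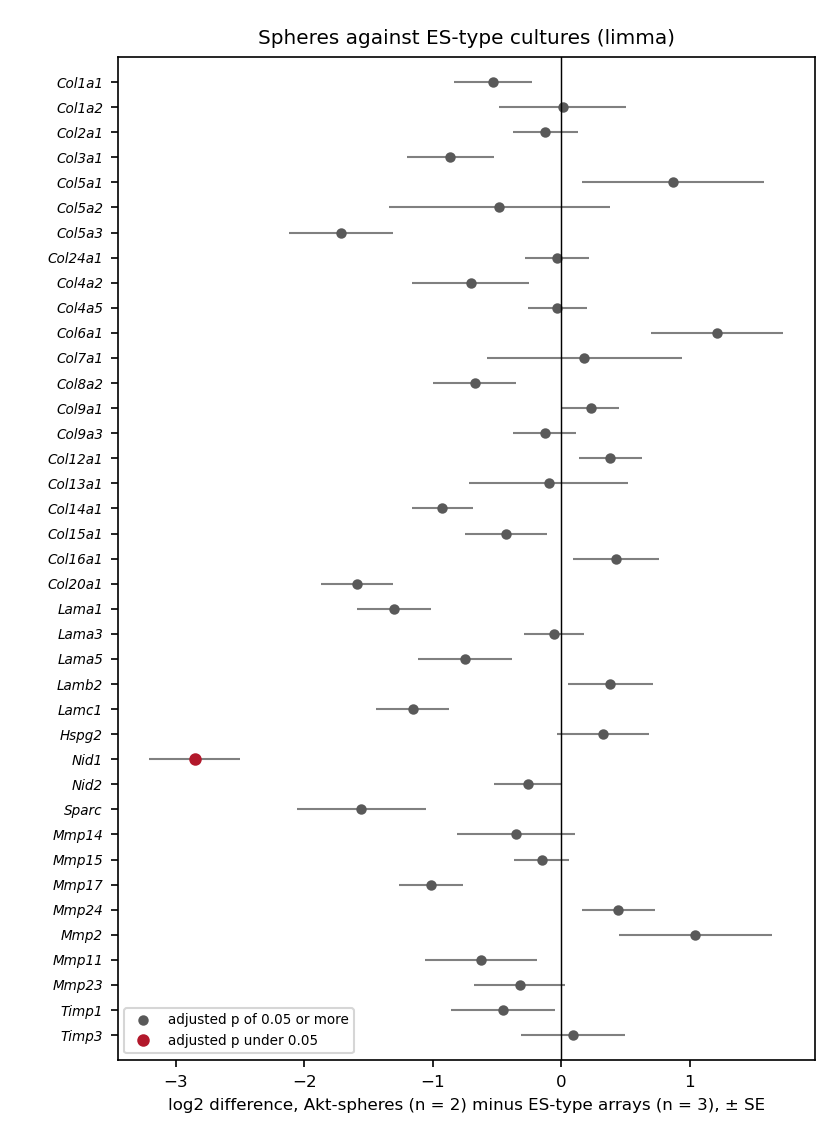
Log2 difference of spheres (n = 2) minus ES-type arrays (n = 3) for the 39 members tested, with standard errors as bars. Nid1 at -2.85 is the only point with an adjusted p under 0.05.

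Of the Mmps, 7 of 21 were tested and limma called 0. Mmp2, the gelatinase that cleaves type IV collagen, read 115 and 104 in spheres of lines 21 and 42, against 101 in reverted cells, 24.1 in ES cells with 4OHT and 59.4 in ES cells without it. The reverted cells lay with the spheres, and ES cells with 4OHT stood lowest (log2 1.04, SE 0.60, limma adjusted p = 0.409). Mmp17, a membrane-anchored Mmp, read 23.2 and 24.8 in spheres and 43.0 to 56.1 on the ES-type arrays, without overlap (log2 -1.02, SE 0.25, limma adjusted p = 0.104). Mmp14, the membrane-type Mmp that activates Mmp2, read 42.0 and 19.7 in spheres and 24.9 to 50.7 on the ES-type arrays, with overlap. Mmp11, a secreted Mmp also called stromelysin-3, read 403 and 170 in spheres and 316 to 471 on the ES-type arrays. Of the inhibitors, Timp1 read 422 and 305 in spheres and 292 to 725 on the ES-type arrays, and Timp3 39.0 and 25.2 against 20.3 to 47.5. Both overlapped.

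By any margin after centring, the spheres lay below all ES-type arrays for 12 of the 39 members and above them for 4 (Col6a1, Col9a1, Col12a1 and Mmp2). Among all genes tested, 18.5% lay below and 19.1% above (37.5% in all). At least 2-fold below in both lines were 3 members (Nid1, Col5a3 and Col20a1) and 0 were 2-fold above, against 2.64% and 1.76% (4.40% in all) of all genes. Of the members below, Col1a1, Col3a1, Col5a3, Col20a1 and Mmp17 reached the level filter only on ES-type arrays, which favoured their difference. Of those above, Col6a1 reached it only in line 21 spheres. The median log2 difference was -0.26 over the 39 members and 0.00 over all genes.

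Genes that process collagen or bind matrix were then taken from 2 lists. Of 33 genes for collagen synthesis and crosslinking, 31 were on the array and 22 were tested. Among these, limma called 1 higher and 2 lower, against 0.963% and 1.47% of all genes tested. Pcolce, a secreted protein that speeds removal of the procollagen C-propeptide, read 60.7 and 20.9 in spheres of lines 21 and 42, against 994 in reverted cells, 815 in ES cells with 4OHT and 852 in ES cells without it. It fell 24.0-fold (log2 -4.59, SE 0.47, limma adjusted p = 0.0146). Its relative Pcolce2 read 166 and 105 in spheres, against 1331, 1031 and 1090.5 in that order, and fell 8.59-fold (log2 -3.10, SE 0.30, limma adjusted p = 0.0136). For both genes the sphere values lay well below every ES-type value.

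P4ha2, a catalytic subunit of the prolyl hydroxylase that stabilises the collagen helix, rose. It read 205 and 204 in spheres, against 89.6 in reverted cells, 79.8 in ES cells with 4OHT and 66.3 in ES cells without it (2.61-fold, log2 1.38, SE 0.23, limma adjusted p = 0.0433). Plod2, a collagen lysyl hydroxylase, read 63.8 and 77.3 in spheres and 31.8 to 53.4 on the ES-type arrays (log2 0.77, SE 0.28, limma adjusted p = 0.214). The crosslinking lysyl oxidases Loxl2 and Loxl3 did not pass (limma adjusted p = 0.577 and 0.188). The list's median log2 difference was -0.34.

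Of 30 matrix receptors and Mmp regulators, 29 were on the array and 20 were tested, with a median log2 difference of -0.36. Here limma called 0 higher and 1 lower, against 0.963% and 1.47% of all genes tested. Itga6, an integrin subunit that binds laminin, fell 4.51-fold (log2 -2.17, SE 0.24, limma adjusted p = 0.0189). Its values were 18.9 and 15.1 in spheres of lines 21 and 42. On the ES-type arrays they were 78.8 in reverted cells, 91.4 in ES cells with 4OHT and 71.0 in ES cells without it. Itga6 reached the level filter only on ES-type arrays, which favoured its difference. Plaur, the urokinase receptor, read 235 and 119 in spheres and 497 to 833 on the ES-type arrays (log2 -2.01, SE 0.39, limma adjusted p = 0.0602). Dag1, dystroglycan, another laminin receptor, read 872 in both sphere lines and 614 to 790.4 on the ES-type arrays. Fn1, fibronectin, read 1386 in line 21 spheres and 168 in line 42 spheres, against 1120 to 2106 on the ES-type arrays, so that line 42 spheres stood apart from the other 4 arrays.

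**Figure D4:**
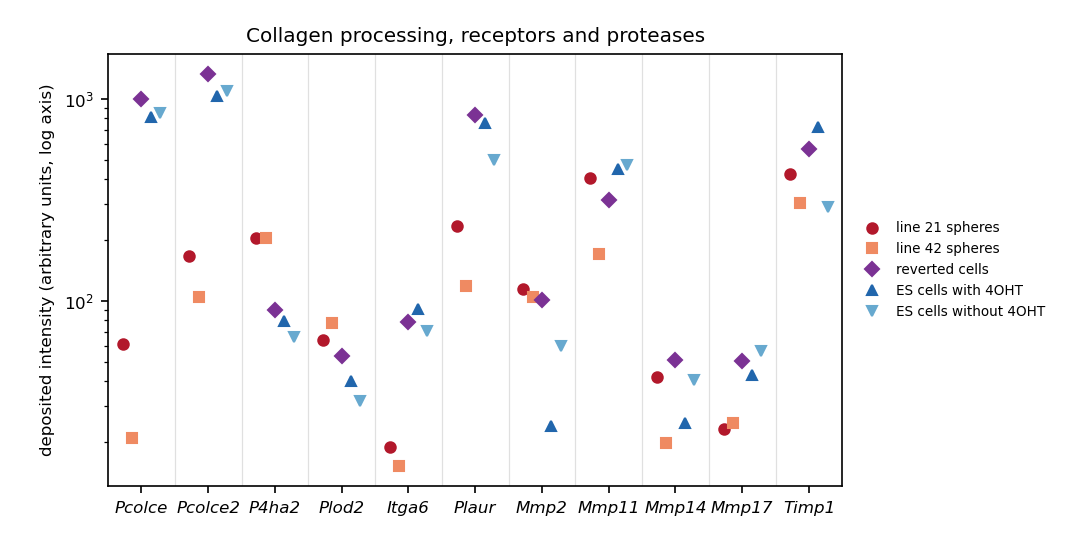
Deposited intensity on a log axis for 11 genes of collagen processing, matrix binding and proteolysis, with 1 point per array. Pcolce, Pcolce2 and Itga6 are low and P4ha2 is high in both sphere lines, while Timp1 is highest in ES cells with 4OHT.

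Markers of other cells were read beside these results. Of 15 stroma markers tested between spheres and ES-type arrays, limma called 1 higher and 2 lower, against 0.963% and 1.47% of all genes. Fabp4, a fatty acid carrier of adipocyte-type cells, read 183 and 143 in spheres of lines 21 and 42, against 4.63 to 6.07 on the ES-type arrays (26.3-fold higher, limma adjusted p = 0.0043). Thy1 was 15.6-fold lower (24.8 and 16.1, against 230.1 to 464) and Acta2, smooth muscle actin, 6.84-fold lower (80.7 and 62.4, against 415 to 606), both at a limma adjusted p of 0.0146. Fabp4 reached the level filter only in spheres and Thy1 only on ES-type arrays, so the filter favoured their difference. The part of OP9 RNA in the sphere values was not tested.

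Of 9 ES cell markers, limma called 5 lower in spheres and 0 higher, against 1.47% and 0.963% of all genes. Those lower were Nr0b1 (37.5-fold), Dppa5a (20.2-fold), Fgf4 (18.0-fold), Klf4 (11.4-fold) and Tdgf1 (4.06-fold). Fgf4 reached the level filter only on ES-type arrays, which favoured its difference. Zfp42 was 45.6-fold lower (limma adjusted p = 0.0503). These folds are means over sphere lines that differed for some genes. Dppa5a read 1014 and 6732 in spheres of lines 21 and 42, and Zfp42 86.1 and 1030. Nanog read 5523 and 4003, against 3839 to 5480 on the ES-type arrays, and Utf1 2821 and 7842, against 5125 to 7534. Both overlapped. For primitive and parietal endoderm, cells that secrete laminin, type IV collagen, nidogen and Sparc, 14 of 17 markers were on the array. Their summed intensity was 233 and 189 in spheres of lines 21 and 42, against 511 in reverted cells, 792 in ES cells with 4OHT and 410 in ES cells without it. Of the defining markers, Afp was listed only in line 21 spheres (4.93), Gata4 reached at most 7.54, Hnf4a 23.4, Sox7 28.5 and Sox17 34.5, the last with no value in spheres. Gata6, an endoderm regulator, fell in spheres (17.7 and 21.2, against 96.0, 165 and 72.4, log2 -2.37, SE 0.36, limma adjusted p = 0.0381). Gata6 reached the level filter only on ES-type arrays, which favoured its difference. The part of endoderm cells in the Nid1, Lama1 and Sparc values was not tested. In bulk samples, fewer cells of a type and less RNA per cell cannot be told apart.

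Each sphere line was next set against single ES-type arrays. These comparisons share the sphere arrays with each other and with the one above, and are given side by side. Against ES cells without 4OHT, Nid1 was 10.5-fold lower in line 21 spheres and 11.7-fold lower in line 42 spheres. Against ES cells with 4OHT the values were 5.29-fold and 5.85-fold, and against reverted cells 5.82-fold and 6.45-fold. Nid1 was therefore at least 5-fold lower in both lines whichever ES-type array it was set against.

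Against ES cells without 4OHT, both lines were 2-fold or more higher for 0 members and lower for 4 (Nid1, Col20a1, Col5a3 and Mmp17) of 36 tested. That is 11.1%, against 10.5% of all genes (4.51% higher and 6.01% lower). The share of members is thus near that of all genes. Col20a1, Col5a3 and Mmp17 were under the level filter in both sphere arrays, so here and below the filter favoured their difference. Against ES cells with 4OHT, 2 were higher and 5 lower of 36, which is 19.4%, against 12.8% of all genes (5.98% higher and 6.86% lower). Against reverted cells, 0 were higher and 7 lower of 39, which is 17.9%, against 10.0% (4.21% higher and 5.81% lower). limma, with 1 residual degree of freedom from the sphere arrays, called 0 of all genes in each (964, 1212 and 920 genes and 4, 6 and 5 members at an unadjusted p under 0.05).

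The members higher in spheres than in ES cells with 4OHT were Mmp2 and Col5a1. In this comparison Mmp2 reached the level filter only in the spheres, which favoured its difference. Mmp2 was 4.89-fold higher in line 21 and 4.31-fold in line 42 spheres, and Col5a1 4.70-fold and 2.50-fold. Lower than in ES cells with 4OHT were Nid1, Col5a3, Lama1, Sparc and Col20a1, with Col5a3 4.36-fold and 6.43-fold lower and Lama1 3.62-fold and 2.61-fold lower in lines 21 and 42. Sparc was 2.03-fold and 4.26-fold lower.

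Lower than in reverted cells were Nid1, Sparc, Col5a2, Col5a3, Col7a1, Col20a1 and Mmp17. Sparc was 3.26-fold and 6.85-fold lower in lines 21 and 42, and Col5a2, the second chain of type V collagen, 2.37-fold and 7.11-fold lower. Mmp17 was 2.06-fold and 2.01-fold lower, at the edge of the threshold. Within line 21, where cells share their origin, Lamc1 was 3.06-fold lower in spheres than in ES cells without 4OHT, 2.87-fold lower than with 4OHT and 2.63-fold lower than in reverted cells. In line 42 spheres the same folds for Lamc1 were 1.88, 1.76 and 1.61.

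The sphere lines also differed from each other. Of 33 members tested, 0 were higher by 2-fold or more and 8 lower in line 42 than in line 21 spheres (24.2%), against 7.87% higher and 7.81% lower (15.7% in all) of all genes. They were Col6a1 (3.08-fold), Col5a2 (2.99-fold), Col13a1 (2.80-fold), Col1a2 (2.47-fold), Mmp11 (2.44-fold), Mmp14 (2.16-fold), Hspg2 (2.14-fold) and Sparc (2.10-fold). Of these 8, 4 reached the level filter only in line 21 spheres (Col5a2, Col6a1, Hspg2 and Mmp14), so the filter favoured their difference. None of the 5 laminin chains tested reached 2-fold, with log2 differences from -0.63 for Lama5 to 0.70 for Lamc1. After centring, line 42 spheres held the lowest value of 18 of the 39 members (46.2%, against 21.3% of all genes).

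Stroma markers differed between the sphere lines as well. Of the list of 22, 21 were on the array, and their summed intensity was 1948 in line 21 and 1065 in line 42 spheres, against 3064 in reverted cells, 1763 in ES cells with 4OHT and 2028 in ES cells without it. Of 13 tested between the lines, 1 was 2-fold higher and 4 lower in line 42, against 7.87% and 7.81% of all genes. Mgp, a matrix protein of stromal cells, read 10.1 in line 42 and 328 in line 21 spheres. Cxcl12 read 8.21 and 109, Bgn 10.6 and 143, and S100a4 8.69 and 280 in the same order. These 4 reached the level filter only in line 21 spheres, and the higher marker, Tagln, only in line 42 spheres. The filter thus favoured their difference. The 6 defining stroma markers did not share 1 direction. Twist2 was higher in line 42 spheres, at 83.0 against 50.1 in line 21 spheres. Postn read 5.53 and 5.88, Dcn 6.53 and 5.49, Lum 20.0 and 26.3 and Pdgfrb 86.9 and 87.7 in line 42 and line 21 spheres, and Prrx1 had no value in line 42 and 10.0 in line 21. The part of stromal RNA in the difference between the lines was not tested.

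The difference that 4OHT makes in ES culture could be read from 1 array on each side, without replicates. Timp1, the secreted inhibitor of most Mmps, read 725 with and 292 without 4OHT (2.25-fold). Col13a1, a transmembrane collagen, read 154 with and 52.3 without (2.64-fold). Col4a2 read 70.0 and 29.0 (2.15-fold), and Col5a3 94.8 and 40.3 (2.11-fold). Mmp2 went the other way, at 24.1 with and 59.4 without 4OHT (2.65-fold lower). The 2-fold mark was passed upward with 4OHT by 4 of 33 members tested and downward by 1, or 15.2%, against 2.56% and 2.40% (4.95% in all) of all genes. Of these 5, Col4a2 and Mmp2 reached the level filter only on the array where they were high, which favoured their difference.

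Short of 2-fold were Nid1, at 465 with and 845 without 4OHT (1.99-fold lower), Mmp14 (1.76-fold lower) and Lama5 (1.64-fold lower). Sparc was 1.60-fold and Lama1 1.47-fold higher with 4OHT. So the basement membrane genes did not go 1 way together. Some endoderm markers were higher beside them: of 6 tested, 3 were at least 2-fold higher with 4OHT and 0 lower, against 2.56% and 2.40% of all genes. Gata6 read 165 and 72.4, Srgn 279 and 100.3 and Sox17 34.5 and 11.3 with and without 4OHT. Sox17 reached the level filter only with 4OHT, which favoured its difference. The other defining endoderm markers did not reach it on either array. Gata4 read 6.57 and 7.54, Sox7 27.1 and 26.3 and Hnf4a 19.5 and 13.7 with and without 4OHT. Afp had no value on either. The part of endoderm cells in the Sparc, Lama1 and Col4a2 values was not tested.

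Reverted cells were set against the ES cells without 4OHT from which line 21 started, again with 1 array each. Nid1 read 499.6 in reverted and 845 in ES cells (1.81-fold lower), while in the parent line 21 spheres it was 82.0. Lamc1 (408 and 443), Lama1 (108 and 90.4) and Col20a1 (50.0 and 70.6) also lay nearer to the ES cells than to the spheres. Of 8 fibrillar collagens tested, 2 were at least 2-fold higher in reverted cells, Col5a1 and Col5a2. Col5a3 (46.0 in reverted and 40.3 in ES cells), Col3a1 (29.7 and 26.0), Col24a1 (29.1 and 22.3) and Col2a1 (74.2 and 88.1) lay within 2-fold. Col7a1, the anchoring-fibril collagen, read 151 in reverted and 26.8 in ES cells (5.10-fold), Col5a2 85.8 and 18.1 (4.25-fold) and Col5a1 329 and 86.7 (3.51-fold). In line 21 spheres these genes read 68.0, 34.3 and 310.

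Sparc was 2.58-fold, Timp3 2.13-fold and Col4a2 2.03-fold higher in reverted cells, and Lamb3 read 58.0 in reverted and 9.24 in ES cells (5.38-fold). Col9a2 read 7.94 in reverted and 35.4 in ES cells (4.36-fold lower). Col1a2, a type I chain, was 1.89-fold and Col1a1 1.76-fold higher. In reverted cells 7 of 39 members tested passed 2-fold upward and 1 downward, or 20.5%, against 5.18% and 6.34% (11.5% in all) of all genes. Of these 8, 6 reached the level filter only on the array where they were high (Col4a2, Col5a2, Col7a1, Col9a2, Lamb3 and Timp3), so the filter favoured their difference. Both arrays passed it for Col5a1 and Sparc. With the filter at the 60th percentile 3 members were left (Col5a1, Col7a1 and Sparc). After centring, the reverted array held the highest value of 14 of the 39 members tested across all arrays (35.9%, against 18.8% of all genes).

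**Figure D5:**
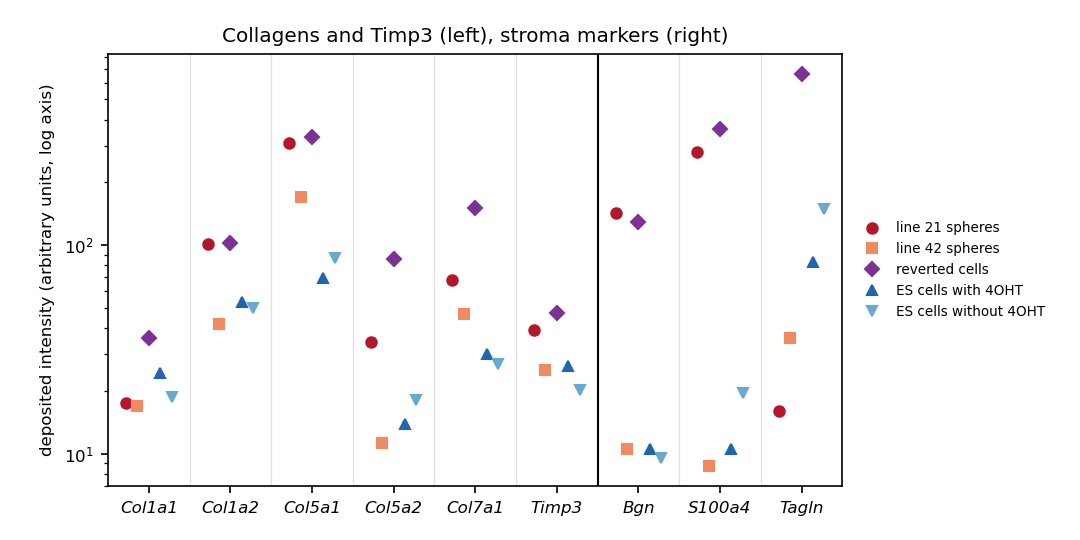
Deposited intensity on a log axis for 5 collagens and Timp3 and for 3 stroma markers, with 1 point per array. Reverted cells are highest for Col5a2 and Col7a1, and Bgn and S100a4 are high in line 21 spheres and reverted cells only.

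Reverted cells were grown on fibroblast feeders, and some stroma markers were higher there too. Of 13 tested, 4 were at least 2-fold higher and 1 lower in reverted than in ES cells without 4OHT. Over all genes the shares were 5.18% and 6.34%. Bgn, a small matrix proteoglycan, read 130 in reverted and 9.50 in ES cells, S100a4 361 and 19.6, and Tagln, a contractile-cell marker, 665 and 148. Vcam1 read 28.9 and 9.66. Of these, Bgn, S100a4 and Vcam1 reached the level filter only in reverted cells, which favoured their difference. Thy1, a surface marker of fibroblasts and of ES cells, was lower, at 230 in reverted and 464 in ES cells. Among the 6 defining markers, Twist2 read 53.5 in reverted and 31.6 in ES cells, and Prrx1 4.90 in reverted cells with no value in ES cells. Dcn read 20.3 and 18.8, Lum 24.1 and 15.4, Postn 8.67 and 10.3 and Pdgfrb 90.0 and 103 in reverted and ES cells. The part of feeder RNA in the collagen values was not tested.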

How the data were processed

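Total RNA was amplified to amino allyl antisense RNA, labelled with Cy5 and hybridised to 1-colour arrays, per the labels' protocols. The authors deposited intensities, whose range shows a linear scale, with a median of 50.0 per array. How that median was set, how background was corrected and when a cell was left empty is not stated in the labels.

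Symbols came from the platform annotation (16264 probes with 1 symbol, 0 with several, 6607 with none) and were updated through RefSeq. For each gene the probe with the highest mean was used. Values were taken to log2(intensity + 1) and every array's median was set equal over 18884 probes listed on all arrays, a shift of -0.08 to 0.06. Tests used limma 3.58.1 in R 4.3.3 (lmFit, eBayes, Benjamini-Hochberg over all genes tested, threshold 0.05), with 3 residual degrees of freedom for spheres against the ES-type arrays, whose spread also holds the differences between those conditions. Against a single array there was 1, and the lone array is taken to have the spread of the sphere lines. Single arrays were compared by a 2-fold rule without a test. The script was tested on simulated data. The number of arrays limits the precision.

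The members and lists were chosen with earlier results of these data known. Genes named come from the members past the threshold, the 10 largest differences each way per comparison, fixed sets of basement membrane, fibrillar, Mmp and Timp genes, and listed pathway genes that passed. Plod2, Loxl2, Loxl3, Dag1, Fn1, Serpine2 and the marker genes were named after their values were seen. Alternatives were other normalizations, pseudocounts, filters, probe rules, an eBayes trend and leaving out arrays.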

Additional observations from a re-analysis of the deposited data

How the results depend on the processing

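For spheres against the ES-type arrays, limma called 1 member as reported, 2 with quantile normalization and 2 without centring (Col20a1 added), and 0 to 1 when 1 array was left out (0 without any array but the reverted one; fewer arrays enter the fit). The log2 difference of Nid1 stayed between -3.04 and -2.55 under all alternatives run. Hspg2, at 0.32, ranged from -0.23 (without line 21 spheres) to 0.87 when 1 array was left out, and Col7a1, at 0.18, ranged up to 0.96 (without reverted cells) and turned to -0.22, -0.20 and -0.11 without ES cells without 4OHT, ES cells with 4OHT and line 21 spheres. Members at least 2-fold apart from ES cells without 4OHT in both lines numbered 4 (1 with the filter at the 60th percentile, 10 with either sphere array alone), from ES cells with 4OHT 7 (11 to 14 with 1 sphere array) and from reverted cells 7 (4 with a pseudocount of 10, 3 with the 60th percentile, 12 to 15 with 1 sphere array). ES cells with against without 4OHT gave 5 (3 with a pseudocount of 10, 8 with no filter, 3 with the 60th percentile), reverted against ES cells 8 (13 with no filter, 3 with the 60th percentile) and line 42 against line 21 spheres 8 (4 with the 60th percentile). A stricter filter tests fewer genes (16 of 36 members in the first case), and 1 sphere array drops the demand that both lines agree; other causes were not tested. No paired analysis was possible because only the spheres have more than 1 array. Signal over background could not be assessed without detection calls, so dim members are the least certain.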

Other observations

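The 30 members that never reached the level filter had listed values of 3.04 to 28.9 and belong in no comparison. Of them, 20 had a value on all 5 arrays. Col22a1, a collagen of tissue junctions, read 22.9 and 13.3 in spheres of lines 21 and 42, against 21.5 in reverted cells, 8.84 in ES cells with 4OHT and 7.35 in ES cells without it. Mmp12, the macrophage elastase, read 7.50 and 11.1 in spheres, against 5.01, 5.81 and 4.00 in the same order. Mmp19 was listed only in ES cells, at 4.42 with and 5.30 without 4OHT. These genes were chosen after their values were seen.

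The other probe of Col15a1, a basement membrane-associated collagen, read 13.4 and 9.99 in spheres and 11.4 to 20.8 in the ES-type cultures. The probe used in the comparisons read 246 and 342 in spheres and 296 to 492 on the ES-type arrays. Serpine2, an inhibitor of serine proteases that act on matrix, read 646 and 881 in spheres of lines 21 and 42, against 485 in reverted cells, 282 in ES cells with 4OHT and 227 in ES cells without it (log2 1.26, SE 0.36, limma adjusted p = 0.145). For endothelium and blood, 7 of 8 markers were on the array, with a summed intensity of 147 and 242 in spheres, against 158 in reverted cells, 410 in ES cells with 4OHT and 266 in ES cells without it.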
